A study of Mus musculus with 6 samples.

Results

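The imprinted growth genes *H19*, *Meg3*, *Dlk1*, *Peg3*, *Mest*, *Cdkn1c*, *Plagl1*, *Grb10* and *Ndn* were followed in sorted osteoblasts (OBs) of ectopic bone. They were chosen by name, and all 9 were found among the 23284 genes listed for each sample. The OBs came from male *Col2.3*-ECFP mice, 12 to 16 weeks old, in which a type I collagen promoter fragment drives a cyan fluorescent protein in OBs. Each mouse carried a subcutaneous collagen sponge with 2.5 μg of rhBMP-2, and no group without BMP-2 is analysed here. Bone was taken on day 10 (n = 3) or day 14 (n = 3) after implantation, digested with trypsin and then with collagenase 1 time on day 10 and 2 times on day 14, and ECFP+ cells were sorted after CD45+ and dead cells had been gated out. Collagenase exposure and day therefore cannot be told apart. The titles call the samples biological replicates but do not say how many mice each held, and the free-text descriptions place replicates 2 and 3 of day 14 on day 15 and day 16.

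Imprinted genes are expressed mainly from the allele inherited from 1 parent. Many of them set the pace of growth before and shortly after birth, and several are silenced in most tissues as growth slows. *H19*, *Meg3*, *Cdkn1c* and, in most tissues, *Grb10* are expressed from the maternal allele, whereas *Dlk1*, *Peg3*, *Mest*, *Plagl1* and *Ndn* are expressed from the paternal allele. Paternally expressed members often promote growth and maternally expressed members often restrain it, although *Plagl1* and *Ndn* are also known to slow cell division. The values here do not separate the alleles, so imprinting itself was not measured.

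Levels are given as FPKM, reads scaled by transcript length and by the mapped reads of the sample, which allows levels to be compared between genes. Mapped reads were estimated from the steps between low FPKM values and numbered 4530832 to 7755478 per sample, highest in replicate 3 of each day. The 7 OB markers were above 0 in all samples, with a mean log2(FPKM + 0.1) between 7.93 and 8.90 on day 10 and between 5.92 and 8.38 on day 14. Replicate 2 of day 14 stood apart from its group. Its 9 listed chondrocyte markers, all above 0 in all 6 samples, summed to 2422 FPKM against 226 and 189 FPKM in replicates 1 and 3 of that day and 745 to 1492 FPKM on day 10. Values without this sample are therefore given as well.

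**Figure D1:**
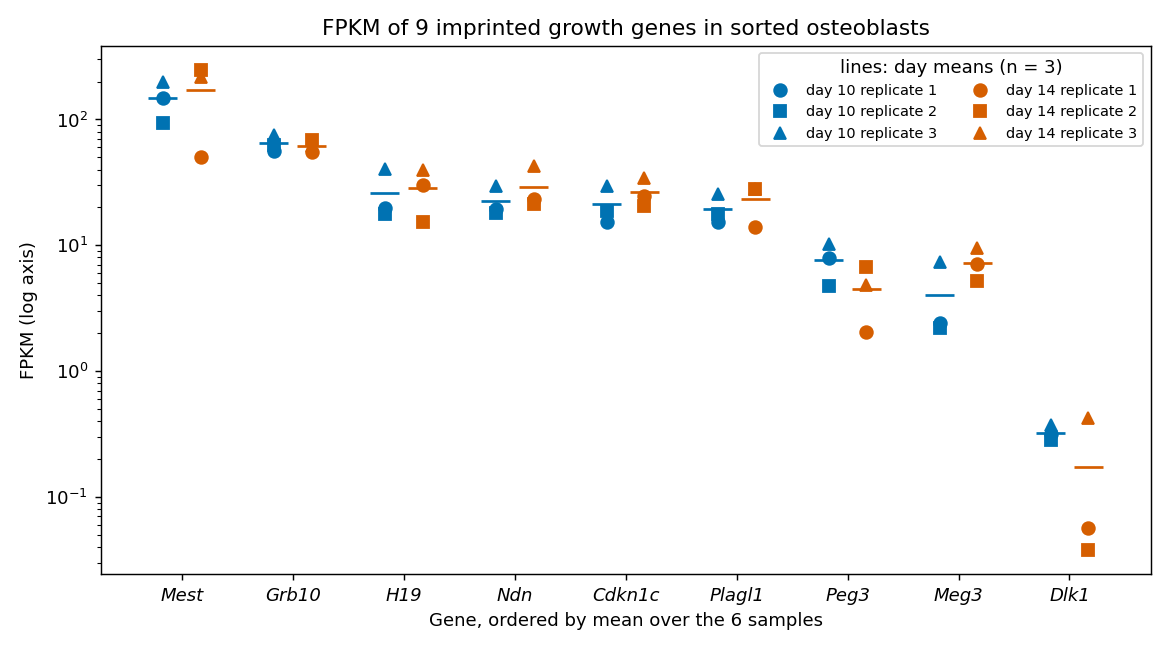
FPKM on a log axis of the 9 imprinted growth genes in each of the 6 samples, with blue symbols for day 10, orange symbols for day 14 and lines at the day means (n = 3). *Mest* and *Grb10* lie highest, *Dlk1* lies below 0.5 FPKM in every sample, and the samples of the 2 days overlap in each gene.

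The 9 genes covered a wide range of levels and 8 of them were above 1 FPKM in every sample. *Mest* was the highest with a mean of 159 FPKM over the 6 samples, and its mean exceeded that of 98.4% of all genes listed on day 10 and of 98.5% on day 14. *Grb10* followed with 63.1 FPKM. *H19* (27.3 FPKM), *Ndn* (25.8 FPKM), *Cdkn1c* (23.8 FPKM) and *Plagl1* (21.5 FPKM) formed a middle group in which neighbours overlapped in their samples and cannot be ordered. *Peg3* (6.08 FPKM) and *Meg3* (5.63 FPKM) were lower and overlapped with each other as well. *Dlk1* had 0.249 FPKM, below every sample of *Meg3*. *Grb10* was above *H19* in 6 of 6 samples, with its lowest sample (54.9 FPKM) over the highest of *H19* (40.7 FPKM). *Plagl1* was above *Peg3* in 6 of 6 samples, with its lowest sample (14.1 FPKM) over the highest of *Peg3* (10.2 FPKM). *Mest* exceeded *Grb10* in 5 of 6 samples, the exception being replicate 1 of day 14.

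Between day 10 and day 14, none of the 9 genes passed the test. The limma fit of log2(FPKM + 0.1) covered 19526 genes, those averaging above 0.1 FPKM, and with Benjamini-Hochberg adjustment it gave 0 of 9 with an adjusted p under 0.05, against 3 genes in all (0.0154%). At an unadjusted p under 0.05 it was again 0 of 9, against 10% of all genes tested. In none of the 9 did the samples of the days part completely, which they did in 14.3% of all genes tested (7.59% higher and 6.67% lower on day 14). The exact Mann-Whitney test also called 0 of 9, and with 3 samples against 3 its smallest possible p is 0.1. The median log2 fold change was 0.12 over the 9 genes, with 5 higher and 4 lower on day 14, and −0.04 over all genes tested. Leaving out *Dlk1*, which rested on few reads, 5 were higher and 3 lower, with a median of 0.18. Without single samples the median of the 9 ran from −0.09 (without replicate 2 of day 10) to 0.45 (without replicate 3 of day 10). The 95% intervals come from limma, which draws the variance of each gene towards that of genes of like level. For a gene more variable than those, the interval is narrower than its own spread alone would give. The standard error of *Mest* was 0.57, and 0.69 without the mean-variance trend. The latter fit still draws the variances of genes together, so its own spread alone would give a wider one. Without replicate 2 of day 14, the log2 fold change was 0.51 for *H19*, 1.24 for *Meg3*, −1.19 for *Peg3*, −0.43 for *Mest*, 0.50 for *Cdkn1c*, 0.07 for *Plagl1*, −0.14 for *Grb10* and 0.53 for *Ndn*, with adjusted p between 0.351 and 0.970 from limma. In bulk samples, fewer cells that express a gene and less RNA per cell cannot be told apart.

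**Figure D2:**
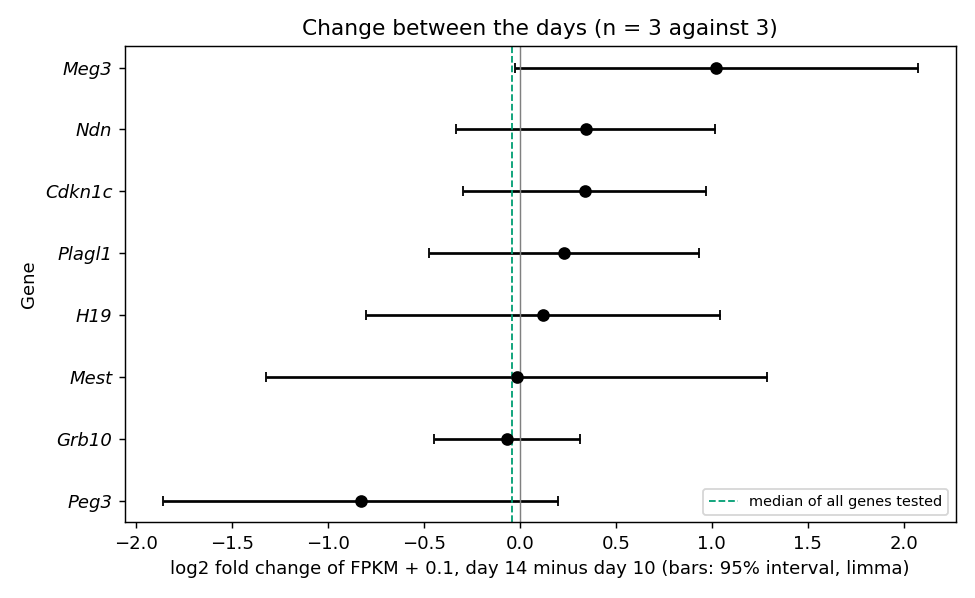
log2 fold change of FPKM + 0.1 between the days (day 14 minus day 10) with 95% intervals from limma (n = 3 against 3) for 8 genes, with the dashed line at the median of all genes tested. Each interval spans 0, the narrowest being that of *Grb10* (−0.45 to 0.31) and the widest that of *Mest* (−1.32 to 1.29). *Dlk1* is left out because it rests on few reads.

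*H19* is a maternally expressed long noncoding RNA that lies next to *Igf2* and restrains growth. In the GENCODE vM21 annotation of mm10, used for all positions here, it lies on chromosome 7 from 142575529 to 142578143 on the minus strand. It had 19.8, 17.8 and 40.7 FPKM in replicates 1, 2 and 3 of day 10 and 30.1, 15.4 and 40.0 FPKM in replicates 1, 2 and 3 of day 14. Replicate 3 was the highest of both days, at nearly the same level, and the lowest of all samples was replicate 2 of day 14. The day means were 26.1 ± 12.7 FPKM (SD, n = 3) and 28.5 ± 12.4 FPKM (SD, n = 3). Their log2 fold change was 0.12 with a standard error of 0.40 (limma, adjusted p = 0.960), well within the spread between replicates, and its 95% interval ran from a fold of 0.574 to 2.06.

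The precursor of miR-675 is cut from an exon of *H19*, and all 84 bases of *Mir675* lie within *H19* exons on the same strand. Both mature forms are printed because *H19* is their host, 5′ to 3′ with the seed (bases 2 to 8) in capitals, from RefSeq on GRCm38.p6.
mmu-miR-675-5p: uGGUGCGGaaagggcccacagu
mmu-miR-675-3p: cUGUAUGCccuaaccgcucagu
The seeds of the 2 forms differ. *Mir675* was listed at 4837 FPKM in replicate 3 of day 10, at 805 FPKM in replicate 2 of day 14 and at 0 in the other 4 samples. The former sample had the highest *H19* of all and the latter the lowest, so the row for *Mir675* did not follow that of its host. Its length is below that of the sequenced fragments, FPKM on such a row is uncertain, and long-RNA libraries do not measure the mature forms. *Mir770* and *Mir1906-1*, which share exon bases with *Meg3*, and *Mir335*, which lies within *Mest*, were listed at 0 in all samples.

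*Meg3*, a maternally expressed long noncoding RNA on chromosome 12 (109541001 to 109571726, plus strand), had the largest log2 fold change of the 8 genes above 1 FPKM with all samples, whereas *Peg3* was further from 0 (−1.13 against 0.72) without replicate 2 of day 10 and (−0.95 against 0.81) without replicate 3 of day 14. It had 2.40, 2.2 and 7.41 FPKM on day 10 and 7.11, 5.17 and 9.46 FPKM on day 14, in the order of the replicate numbers. Replicates 1 and 2 of day 10 were below all samples of day 14, whereas replicate 3 of day 10 lay among them. The day means were 4.0 ± 2.96 and 7.25 ± 2.15 FPKM (SD, n = 3 each). The log2 fold change was 1.02 with a standard error of 0.46 (limma, unadjusted p = 0.0544, adjusted p = 0.510) and a 95% interval from −0.02 to 2.07. Without replicate 3 of day 10 it was 1.57 with an unadjusted p of 0.00232 and an adjusted p of 0.339 from limma. The samples rested on an estimated 20.7 to 118 reads of *Meg3* at the median length of its annotated transcripts with a RefSeq match. At the longest of these they rested on 169 to 958.

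*Dlk1* encodes a transmembrane protein of the Notch ligand family that keeps preadipocytes and other progenitors undifferentiated, and it is expressed from the paternal allele of the same domain as *Meg3*, from 109452823 to 109463336. It had 0.318, 0.283 and 0.373 FPKM on day 10 and 0.0568, 0.0377 and 0.427 FPKM on day 14. Replicates 1 and 2 of day 14 were lowest and replicate 3 of that day was highest. At the median length of its annotated transcripts with a RefSeq match these values correspond to an estimated 0.33 to 4.45 reads per sample, near or under a floor of 3 reads. At the longest such transcript the estimate reached 13.4 reads, but it was 1.14 and 0.99 in replicates 1 and 2 of day 14. No fold change is therefore given, and a difference was not detectable at this depth (adjusted p = 0.751 from limma).

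*Cdkn1c* and *Grb10*, both known as brakes on growth, were detected in all samples. *Cdkn1c* encodes p57, an inhibitor of cyclin-dependent kinases, and lies on chromosome 7 from 143458339 to 143461050. It had 15.3, 18.8 and 29.6 FPKM on day 10 and 24.6, 20.7 and 34.0 FPKM on day 14. Every day 14 sample was above replicates 1 and 2 of day 10, and replicate 3 of day 10 lay between them. The means of 21.2 ± 7.46 and 26.4 ± 6.84 FPKM (SD, n = 3 each) gave a log2 fold change of 0.34 with a standard error of 0.28 (limma, adjusted p = 0.761), and its 95% interval ran from −0.29 to 0.97.

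*Grb10* encodes an adaptor that binds the insulin and IGF-1 receptors and dampens their signal, and lies on chromosome 11 from 11930508 to 12038683. It had 56.3, 62.1 and 75.7 FPKM on day 10 and 54.9, 68.1 and 61.5 FPKM on day 14. The highest sample was only 1.38 times the lowest, the smallest such ratio of the 9 genes. The means of 64.7 ± 9.97 and 61.5 ± 6.59 FPKM (SD, n = 3 each) differed by a log2 fold change of −0.07 with a standard error of 0.17 (limma, adjusted p = 0.940). The 95% interval ran from a fold of 0.733 to 1.24, so that *Grb10* was the gene with the tightest limits on a change between the days.

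*Plagl1* encodes a zinc-finger transcription factor known to act on several other imprinted genes, and lies on chromosome 10 from 13060504 to 13131694. It had 15.2, 17.7 and 25.7 FPKM on day 10 and 14.1, 28.1 and 28.3 FPKM on day 14. Replicate 1 of day 14 was the lowest sample and the other 2 of that day were the highest. Its log2 fold change was 0.23 with a standard error of 0.31 (limma, adjusted p = 0.866), and its 95% interval ran from −0.47 to 0.94.

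*Ndn* encodes necdin, a protein that restrains proliferation and promotes differentiation in neurons and other cells, and lies on chromosome 7 from 62346569 to 62350262. It had 19.5, 18.1 and 29.5 FPKM on day 10 and 23.3, 21.4 and 42.8 FPKM on day 14. Replicate 3 was highest on both days, and the day 14 samples overlapped those of day 10. Its log2 fold change was 0.34 with a standard error of 0.30 (limma, adjusted p = 0.776), and its 95% interval ran from −0.33 to 1.02.

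*Peg3* and *Mest* had their lowest values in replicate 1 of day 14. *Peg3* encodes a large zinc-finger protein and lies on chromosome 7 from 6703892 to 6730431. It had 7.92, 4.74 and 10.2 FPKM on day 10 and 2.03, 6.75 and 4.79 FPKM on day 14. Only replicate 1 of day 14 was below all samples of day 10. The means of 7.63 ± 2.76 and 4.52 ± 2.37 FPKM (SD, n = 3 each) gave a log2 fold change of −0.83 with a standard error of 0.45 (limma, adjusted p = 0.597). It was −0.35 without that sample, and −1.19 without replicate 2 of day 14 (unadjusted p = 0.0380, adjusted p = 0.351 from limma).

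*Mest* encodes a protein of the hydrolase fold family that marks growing mesoderm and expanding fat, and lies on chromosome 6 from 30723547 to 30748465. It had 149, 93.9 and 198 FPKM on day 10 and 50.2, 248 and 217 FPKM on day 14. Within day 14 the 3 samples therefore held both the lowest and the highest value of the 6. The means of 147 ± 52.3 and 172 ± 106 FPKM (SD, n = 3 each) differed by a log2 fold change of −0.02 with a standard error of 0.57 (limma, adjusted p = 0.997), so that the log2 scale and the means gave opposite signs. Without replicate 1 of day 14 the log2 fold change was 0.72 (adjusted p = 0.419 from limma). The interval with all samples allowed a fold from 0.400 to 2.45.

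**Figure D3:**
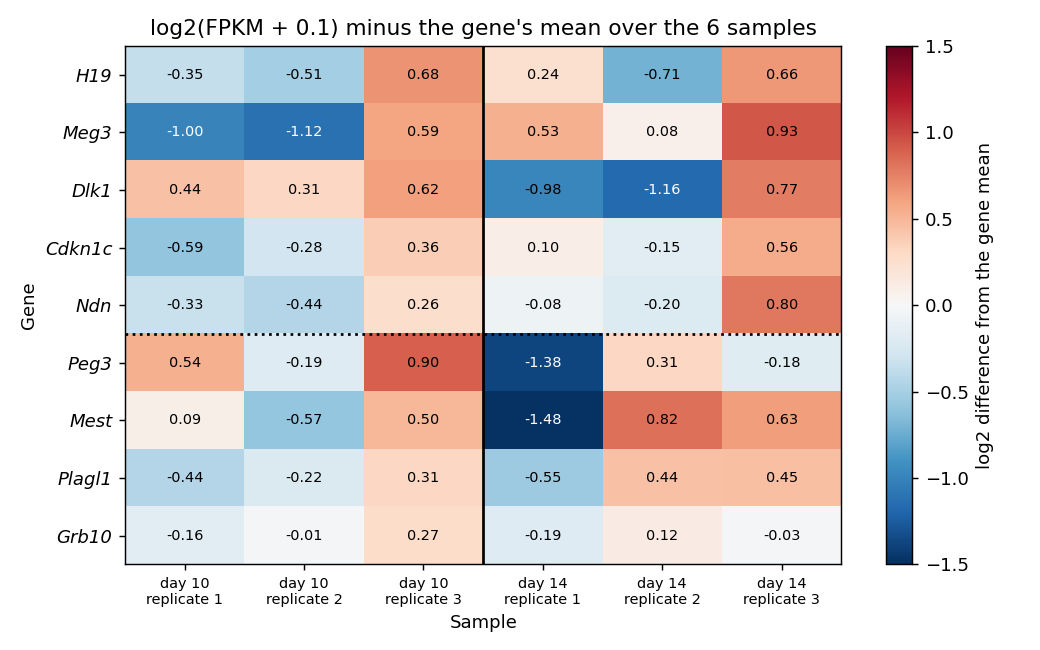
log2(FPKM + 0.1) of each gene in each sample after subtraction of the gene's mean over the 6 samples, in red where higher and in blue where lower. Replicate 3 of day 10 is red in all 9 genes. The dotted line parts the 5 genes whose lowest day 14 sample is replicate 2 (upper) from the 4 genes whose lowest day 14 sample is replicate 1 (lower).

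Within day 10 the highest sample was the same for all 9 genes. Replicate 3 was the highest of the 3 day 10 samples in 9 of 9 genes, whereas it was the highest in 30.9% of all genes tested and in 35.6% of the 11162 genes with a mean of at least 1 FPKM. Among the 44 other imprinted genes tested it was the highest in 18. *Dlk1* counts among the 9 although it rested on an estimated 2.30, 2.32 and 4.26 reads in replicates 1, 2 and 3 of day 10. On day 14, replicate 3 was the highest in *H19*, *Meg3*, *Dlk1*, *Cdkn1c*, *Plagl1* and *Ndn*, and replicate 2 in *Peg3*, *Mest* and *Grb10*. Replicate 3 was the highest of that day in 26.5% of all genes tested and in 36.3% of those averaging 1 FPKM or more, and replicate 2 in 28.1% and 40.0%, and among the 44 other imprinted genes they were the highest in 11 and 18. Replicate 1 was the lowest of day 14 in *Peg3*, *Mest*, *Plagl1* and *Grb10*, and replicate 2 in the other 5. Replicate 1 was also the lowest in 31.9% of all genes tested and in 44.5% of those averaging 1 FPKM or more, and replicate 2 in 40.5% and 29.1%, so that the count of 4 in 9 for replicate 1 was near its share over all genes. Members of both parental origins were found in both sets.

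Several other values moved with replicate 3 of day 10. It was the sample with the most estimated reads and with the lowest FPKM sum (431898 against 466389 and 486684 for the other 2 of the day). The 8 cell cycle genes summed to 75.8 FPKM in it against 47.5 and 49.2 FPKM in the others. The 9 mesenchymal progenitor and pericyte markers had a mean log2(FPKM + 0.1) of 4.48 in it against 4.31 and 4.24. *Acta2*, *Ly6a*, *Pdgfrb*, *Rgs5* and, narrowly, *Prrx1* were higher in it than in both others. *Cspg4*, *Lepr* and *Pdgfra* were lower than in both, and *Mcam* lay between. The 7 OB markers were lowest in it on day 10, with a mean log2(FPKM + 0.1) of 7.93 against 8.84 and 8.90. The part of these differences in the levels of the imprinted genes was not tested. On day 14, the 7 listed myeloid markers summed to 592 FPKM in replicate 3, 238 FPKM in replicate 1 and 20.2 FPKM in replicate 2. *H19*, *Meg3*, *Cdkn1c*, *Ndn* and, on few reads, *Dlk1* stood in the same order on that day. The share of all genes in this order was not counted. On day 10 the orders of genes and markers differed, with 34.1, 143 and 114 FPKM of myeloid markers in replicates 1, 2 and 3. Their part in the levels of the imprinted genes was not tested. Of the 9 skeletal muscle and satellite cell markers, *Myog* was at 0 in all samples and 1 to 5 were at 0 in each sample, with sums between 6.96 and 18.1 FPKM. Of the 7 adipocyte markers, 1 to 4 were at 0 in each sample.

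**Figure D4:**
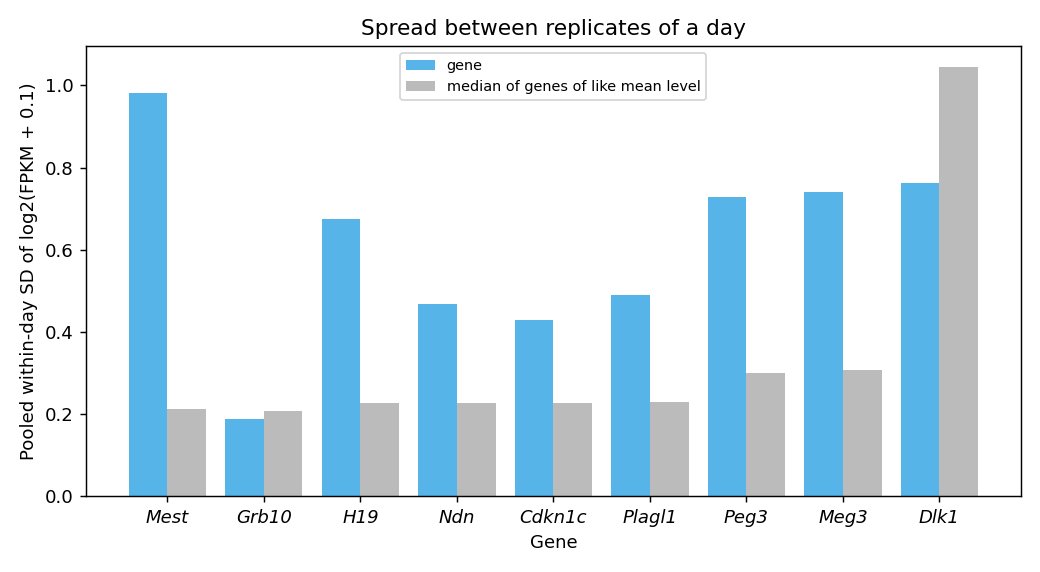
Pooled standard deviation of log2(FPKM + 0.1) between the replicates of a day for each of the 9 genes (blue bars) beside the median of the genes within 0.5 of its mean log2 level (grey bars). The blue bar is above the grey bar for 7 genes and below it for *Grb10* and *Dlk1*.

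The size of the replicate spread was given as the pooled standard deviation of log2(FPKM + 0.1) within the days, beside that of the genes whose mean log2 level lay within 0.5 of the gene's own. For *Mest* it was 0.982, against a median of 0.211 over 296 such genes, and 97.0% of them were below *Mest*. For *H19* it was 0.675 against 0.226, above 96.6% of 1273 genes. *Meg3* (0.740, above 93.5% of genes of like level), *Peg3* (0.729, above 93.3%), *Plagl1* (0.490, above 91.1%), *Ndn* (0.469, above 90.2%) and *Cdkn1c* (0.429, above 86.7%) were also more variable than most. *Grb10* was not, with 0.189 against 0.207. *Dlk1* (0.762 against 1.04) was among genes of very few reads, whose median spread was itself wide. A spread of this size limits what 3 samples a day can show. The 7 variable genes rested on at least 19.6 estimated reads in every sample, even at their shortest annotated transcripts with a RefSeq match.

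The genes with the most similar course over the 6 samples were sought among 11161 others with a mean of at least 1 FPKM, by the root mean square difference between the centred log2 values. *Cdkn1c* and *Ndn* were each other's nearest among the 9 genes (0.176), and *H19* was next to *Cdkn1c* (0.302). *Peg3* and *Mest* were also each other's nearest (0.488). The nearest to *H19* were *Tnfaip8* (0.119) and *Ifit3* (0.122), and those to *Meg3* were *Sprn* (0.158) and *Gpsm3* (0.190). For *Cdkn1c* they were *Apaf1* (0.0759) and *Lass6* (0.0983), and for *Ndn* they were *Tns1* (0.0822) and *Vcan* (0.101), the latter encoding the matrix proteoglycan versican. *Kif20a* (0.155), which encodes a kinesin of cell division, and *Drd4* (0.188) were nearest to *Peg3*. *Timm8a1* (0.265) and *Moxd1* (0.310) were nearest to *Mest*, and *Pnpt1* (0.0786) and *5830433M19Rik* (0.0832) to *Plagl1*. *Nap1l4* (0.0412), itself in an imprinted domain of chromosome 7, and *Fh1* (0.0527) were nearest to *Grb10*. Between 39 genes (for *Ndn*) and 5072 genes (for *Grb10*) were nearer than the nearest of the 9, and these likenesses over 6 samples are given as a description.

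The levels of neighbours in 1 domain were set against each other within each sample. A plain ratio needs no scaling between samples. With 0.1 added to both genes this holds only roughly where a gene is low. *Meg3* exceeded *Dlk1* in 6 of 6 samples. The log2 ratio of FPKM + 0.1 was 3.05 ± 0.814 on day 10 and 4.99 ± 0.711 on day 14 (SD, n = 3 each), and the days did not overlap (p = 0.1 by a two-sided exact permutation test, which cannot go lower with 3 against 3). That difference of 1.94 rested on the few reads of *Dlk1* and was 1.03 with a pseudocount of 1 (two-sided exact permutation test, p = 0.2) and 2.79 with none.

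*H19* exceeded *Igf2*, its paternally expressed neighbour that encodes insulin-like growth factor 2, in every sample. *Igf2* had 3.05, 0.730 and 2.69 FPKM on day 10 and 1.63, 2.56 and 2.23 FPKM on day 14. The ratio of FPKM + 0.1 ran from 5.83 to 21.6 over the samples, and its log2 difference between the days was −0.07 (two-sided exact permutation test, p = 0.9). In FPKM + 0.1, *Cdkn1c* exceeded *Kcnq1ot1*, the paternally expressed noncoding RNA of its domain, by 31.4 to 85.8 times. The log2 difference between the days was 0.26 (two-sided exact permutation test, p = 0.7). *Kcnq1ot1* was at 0.267 to 0.646 FPKM, so the added 0.1 lowers this ratio. FPKM also divides by its annotated length of 93092 bases. Its estimated reads (147 to 272 per sample) were of the same order as those of *Cdkn1c* (125 to 400). *Mest* exceeded *Copg2*, which runs against it on the opposite strand, by 15.4 to 58.7 times in FPKM + 0.1. The log2 difference between the days was 0.40 (two-sided exact permutation test, p = 0.6). The 2 genes share 912 exon bases and the cDNA kit does not mark strand, so reads there cannot be told apart. The same holds for 1228 exon bases of *Meg3* shared with the antisense *Gm26906* and for 625 of *Cdkn1c* shared with the antisense *Gm44732*.

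**Figure D5:**
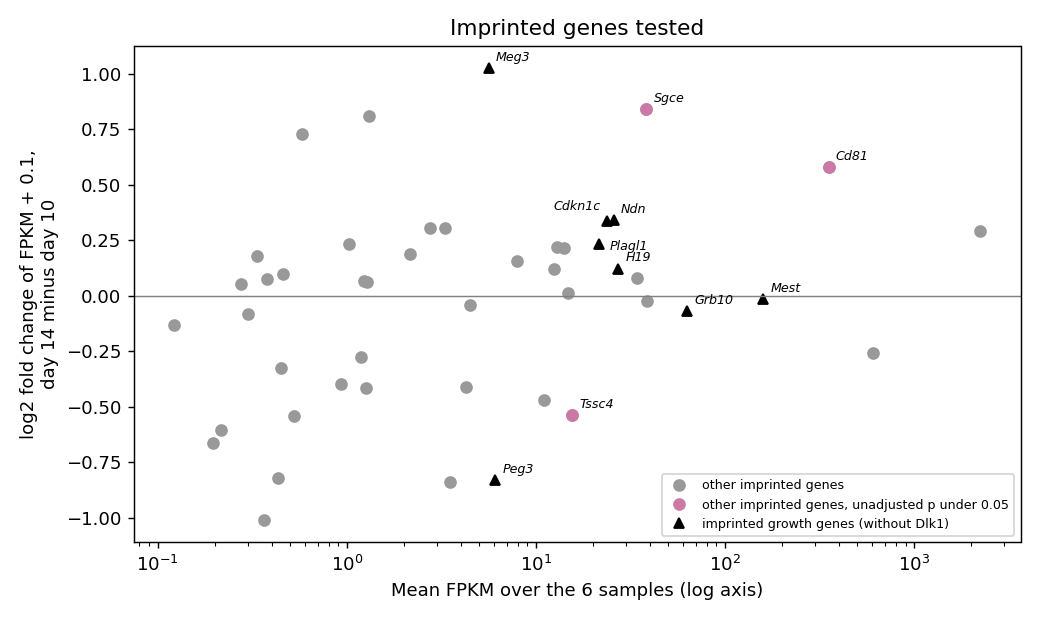
log2 fold change of FPKM + 0.1 (day 14 minus day 10) against the mean FPKM on a log axis for 39 other imprinted genes (circles) and for 8 of the imprinted growth genes (triangles). *Sgce* and *Cd81* lie above 0.5 and *Tssc4* below −0.5, all 3 with an unadjusted p under 0.05 (pink circles), and the other circles are grey. Left out are 5 genes, *Klf14* among them, with a mean under 3 estimated reads on either day.

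A list of 50 other imprinted genes was read beside the 9. All 50 were listed, 44 passed the filter on the mean, and 23 were higher and 21 lower on day 14, with a median log2 fold change of 0.03. By limma, 0 of the 44 had an adjusted p under 0.05 and 4 had an unadjusted p under 0.05, a share close to the 10% of all genes tested. *Sgce*, which encodes epsilon-sarcoglycan and is paternally expressed, had 24.7, 25.6 and 32.5 FPKM on day 10 and 46.1, 50.9 and 50.4 FPKM on day 14. Its days did not overlap, and the log2 fold change was 0.84 with a standard error of 0.16 (limma, adjusted p = 0.288). *Cd81*, which encodes a tetraspanin of the *Cdkn1c* region, had 283 ± 31.7 FPKM on day 10 and 422 ± 37.1 FPKM on day 14 (SD, n = 3 each). *Tssc4* had 18.3 ± 0.783 and 12.8 ± 3.25 FPKM, and *Klf14* had 0.527 ± 0.179 and 0.135 ± 0.0639 FPKM (SD, n = 3 each). The day 14 values of *Klf14* rested on an estimated 1.01, 2.05 and 4.1 reads, near or under the floor of 3 reads, so no fold change is given for it. The days did not overlap in 8 of the 44, of which 5 were higher and 3 lower on day 14, near the 14.3% of all genes tested.

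The insulin-like growth factor pathway, on which *Grb10*, *H19* and *Igf2* bear, was given by 19 genes, all tested. Of these 15 were higher and 4 lower on day 14, with a median log2 fold change of 0.44. Over all 19526 genes tested, 9085 were higher and 10441 lower. Marker lists of cell types differed between the days as well. All 7 endothelial markers had a higher value on day 14, with log2 fold changes of 0.08 to 1.94 and a median of 0.88. Their sums were 1.48 to 3.65 FPKM on day 10 and 4.44 to 8.48 FPKM on day 14. Only 2 of them averaged above 1 FPKM and *Emcn* was at 0 in replicates 1 and 3 of day 10, so these fold changes are uncertain. All 7 OB markers had a lower value on day 14, with a median log2 fold change of −1.69. The OB markers of replicate 2 of day 14 lay within the day 10 range, with a mean log2(FPKM + 0.1) of 8.38 against 6.81 and 5.92 in replicates 1 and 3. The days did not overlap in 3 endothelial markers and 1 OB marker (14.3% of all genes tested). In limma, 0 of either list had an adjusted p under 0.05 and 2 of each had an unadjusted p under 0.05, against 10% of all genes tested. The part of these markers in the values of the pathway was not tested. By limma, 0 of 19 had an adjusted p under 0.05, while 7 had an unadjusted p under 0.05, 6 of them higher (5.6% of all genes tested) and 1 lower (4.4%). *Igfbp2*, a binding protein that holds IGFs outside the cell, had 12.8, 6.33 and 16.1 FPKM on day 10 and 82.4, 61.4 and 36.4 FPKM on day 14 (a log2 difference of 2.37 with a standard error of 0.39, limma adjusted p = 0.220). *Igfbp4* had 330 ± 104 and 758 ± 59.6 FPKM (SD, n = 3 each), with an adjusted p of 0.292 from limma. *Igfbp6* had 64.0 ± 8.51 and 158 ± 64.6 FPKM (SD, n = 3 each). The gene that was lower was *Irs1*, an adaptor of the insulin and IGF receptors, with 7.65 ± 0.249 and 4.89 ± 2.11 FPKM (SD, n = 3 each).

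Of 9 genes that keep imprints through cell division, 1 was higher and 8 were lower on day 14, with a median log2 fold change of −0.28. By limma 0 of 9 had an adjusted or an unadjusted p under 0.05. Only 7 of the 9 averaged above 1 FPKM. *Dppa3* was above 0 only in replicate 2 of day 10 and replicate 1 of day 14, and *Zfp57* was at 0.219 to 0.678 FPKM. The direction of these low genes, both counted as lower, is uncertain. *Uhrf1*, which brings the maintenance methyltransferase to replicating DNA, had 2.61 ± 0.556 and 1.61 ± 0.476 FPKM (SD, n = 3 each). *Zfp445*, which encodes a zinc-finger protein that binds imprinted regions, had 4.81, 5.01 and 4.76 FPKM on day 10 and 4.28, 2.45 and 4.33 FPKM on day 14. These genes and *Setdb1*, a histone methyltransferase gene, were the 3 of the list whose days did not overlap, all lower on day 14 (6.67% of all genes tested). *Trim28*, which encodes the corepressor recruited by such zinc-finger proteins, was the highest of the list and overlapped between the days, with 28.2 ± 2.92 and 23.8 ± 4.41 FPKM (SD, n = 3 each). *Uhrf1* is also known to follow DNA replication. Of the 8 cell cycle genes, 7 were lower on day 14, and 6 of these had days that did not overlap (6.67% of all genes tested were lower without overlap). The part of cell division in the values of *Uhrf1* was not tested.

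The promoters of *Mest*, *Plagl1*, *Grb10* and *Peg3* are printed, since each gene is known to carry a region that is methylated on the maternal allele, at or near a promoter. The printed windows were not matched to those regions and need not lie within them. RefSeq windows on GRCm38.p6, from 250 bases before to 50 bases after the start, were matched for 7 of the 9 genes, with 11 windows in all, and *H19* and *Cdkn1c* were not matched. The capitals mark the hexamer TGCCGC on either strand (GCGGCA on the other), the core that ZFP57 binds when its CpG is methylated. The windows are Mest at chr6:30737800-30738099 on the plus strand, Plagl1 at chr10:13090582-13090881 on the plus strand, Grb10 at chr11:12037371-12037670 on the minus strand and Peg3 at chr7:6730370-6730669 on the minus strand.
Mest: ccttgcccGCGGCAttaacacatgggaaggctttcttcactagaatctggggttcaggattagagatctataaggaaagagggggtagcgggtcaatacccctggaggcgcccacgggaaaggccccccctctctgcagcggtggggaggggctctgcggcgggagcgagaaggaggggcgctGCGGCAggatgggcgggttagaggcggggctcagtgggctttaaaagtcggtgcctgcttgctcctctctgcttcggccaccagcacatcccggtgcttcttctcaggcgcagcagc
Plagl1: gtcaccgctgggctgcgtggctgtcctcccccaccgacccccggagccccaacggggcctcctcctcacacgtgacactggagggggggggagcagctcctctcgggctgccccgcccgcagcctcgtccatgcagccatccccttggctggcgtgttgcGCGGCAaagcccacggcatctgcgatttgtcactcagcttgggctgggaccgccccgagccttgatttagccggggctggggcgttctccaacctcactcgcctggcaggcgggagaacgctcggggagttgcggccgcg
Grb10: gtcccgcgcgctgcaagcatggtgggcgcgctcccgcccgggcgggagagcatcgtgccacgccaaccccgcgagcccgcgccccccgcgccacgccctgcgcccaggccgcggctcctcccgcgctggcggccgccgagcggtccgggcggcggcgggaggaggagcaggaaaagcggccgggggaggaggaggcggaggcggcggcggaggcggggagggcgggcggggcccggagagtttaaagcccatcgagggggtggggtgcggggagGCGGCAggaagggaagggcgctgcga
Peg3: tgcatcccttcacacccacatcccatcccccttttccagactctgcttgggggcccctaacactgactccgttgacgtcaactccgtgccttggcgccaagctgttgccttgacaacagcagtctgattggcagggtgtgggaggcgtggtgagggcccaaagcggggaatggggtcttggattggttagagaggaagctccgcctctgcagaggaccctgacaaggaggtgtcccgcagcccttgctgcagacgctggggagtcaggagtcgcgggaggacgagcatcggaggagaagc
*Mest* held the hexamer 2 times in this window, *Plagl1* and *Grb10* held it 1 time each, and *Peg3* did not hold it. Of the other members, *Meg3* held it 1 time in 1 of its 2 windows and *Dlk1* and *Ndn* did not. Over 32851 promoter windows of 300 bases, 11.6% held it at least 1 time and 1.53% at least 2 times. The window of *Grb10* held 45 CpG, more than in 98.1% of all promoters, and that of *Plagl1* held 26. *Mest* had 17, *Peg3* and *Meg3* 13, *Ndn* 11 and *Dlk1* 9, against a median of 7 over all promoters. The other windows of *Grb10*, *Meg3* and *Mest* held 9, 1 and 8 CpG, and the remaining window of *Mest* overlapped the one printed. The hexamer was present both in the evenly expressed *Grb10* and in the variable *Mest*. These are letters in a window, and neither binding nor methylation was measured.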

How the data were processed

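The authors sequenced 75-base single-end reads and deposited FPKM per gene, 1 file per sample, with no counts. Their processing notes name mm10, Cufflinks 2.2.1, SAMtools 0.1.19, TopHat2 2.0.13 and Bowtie2 2.2.3. The gene annotation and the handling of multiply mapped reads were not given in the sources used here. In replicate 2 of day 14, 25 symbols turned into dates were restored by position. The comparison used limma 3.58.1 (R 4.3.3, mean-variance trend) on log2(FPKM + 0.1) for 19526 genes with a mean above 0.1 FPKM, with the day as factor, and it was tested on simulated data. Fold changes are those of FPKM + 0.1 and understate changes of low genes. The depth estimate used genes with 1 transcript of 1500 to 8000 bases and GENCODE vM21, and between 74.9% and 79.3% of low values came within 0.1 of a whole read. Floors cover counting error only. Limma p-values weigh the difference between the days against the spread between these samples, drawn towards that of genes of like level. The exact tests only rearrange the day labels. The genes and lists were chosen with earlier results of these data known. Named genes are the 9 members, the 2 nearest in pattern, neighbours in a domain and examples from the lists. Most examples were those with the smallest p or highest mean. *Irs1* was named as a gene that was lower, ahead of *Igfbp7*, which was higher with a smaller p. Further markers were named to describe samples. The chondrocyte marker *Cnmd* and the myeloid marker *Adgre1* were not matched by symbol. Alternatives were other pseudocounts, filters, scalings and variance models, a replicate block, and leaving out each sample.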

Additional observations from a re-analysis of the deposited data

How the results depend on the processing

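Under all 14 other limma settings, the number of the 9 genes past an adjusted p of 0.05 stayed at 0. With an unadjusted p under 0.05 the count was 0 to 1 when single samples were left out, with *Meg3* passing without replicate 3 of day 10 and *Peg3* without replicate 2 of day 14, and 1 when replicate numbers entered as a block (*Meg3*, limma adjusted p = 0.282). The labels do not say that the numbers pair the samples. Deviations from the day means correlated by 0.0580, −0.00584 and 0.0887 in the same-numbered pairs, and not every sample correlated best with its own number. The block changed no other call on the 9 genes. Leaving out 1 sample moved the log2 fold change between −0.17 and 0.51 for *H19*, −0.43 and 0.72 for *Mest*, and −0.16 and 0.051 for *Grb10*, with a change of sign in each. *Meg3*, *Cdkn1c*, *Plagl1* and *Ndn* kept a higher and *Peg3* a lower value on day 14 under the settings run. The difference in the *H19*/*Igf2* ratio was 0.042 with a pseudocount of 1 and ran from −0.56 to 0.46 without single samples, and that of *Cdkn1c*/*Kcnq1ot1* from −0.065 to 0.65. Without single samples, genes with an adjusted p under 0.05 numbered 3 to 8 (8 without replicate 2 of day 14, 5 without replicate 2 or 3 of day 10) and those with an unadjusted p under 0.05 numbered 948 (without replicate 1 of day 10) to 2666 (without replicate 1 of day 14). In the same fits an unadjusted p under 0.05 was found for 2 to 5 other imprinted genes (2 without replicate 1 or 2 of day 10), 4 to 7 genes of the insulin-like growth factor pathway (4 without replicate 1 of day 10) and 0 to 1 gene of imprint maintenance (1 without replicate 3 of day 14). The cause was not tested.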
